A study of Mus musculus with 8 samples.

Results

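The genes described here are 8 listed members of the WNT pathway, 4 ligands (Wnt9a, Wnt7b, Wnt7a and Wnt4), 3 transcription factors (Tcf7l2, Tcf7 and Lef1) and the feedback gene Axin2, among 18102 genes of the deposited table. They were chosen by name, with earlier results of these data known, and all 8 have a row in the table. A mean normalised count of at least 10 was reached by 7 of them, and those were tested. The mean of Lef1 was 2.883, so it is described by its reads only. RNA was sequenced from NMuMG cells, an epithelial line of the mouse mammary gland, in 8 libraries that make 4 groups of 2. The groups were cells labelled as an RREB1 knockout (KO-labelled) with 100 pM TGFβ for 1.5 h, KO-labelled cells with 2.5 µM SB505124 for 6 h, wild type (WT) cells with TGFβ, and WT cells with SB505124. All cells had first been kept without serum for 6 h. SB505124 inhibits the type I TGFβ receptor kinase, so the libraries that TGFβ is set against were inhibited, for a longer time, and were not untreated. The columns of the KO-labelled cells all carry the code KO1, taken here as 1 clone, so the genotype and the clone cannot be told apart. No label says whether the 2 libraries of a group are separate cultures, so each p-value reflects the spread among these libraries only, which may be technical.

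WNT proteins are secreted, lipid-modified ligands that bind Frizzled receptors together with LRP coreceptors. In the canonical branch the signal stops the destruction complex (Axin, APC and kinases) from degrading β-catenin, which then enters the nucleus and joins DNA-bound LEF/TCF factors. Axin2 is a widely used target gene of that branch and encodes a scaffold of the destruction complex, which closes a negative feedback loop. In the mammary gland WNT signals take part in placode formation and ductal side branching.

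The libraries held 25144204 to 32143113 reads in genes. Rreb1, the targeted gene, was not lower under its label. Its normalised count was 2361 ± 170 in KO-labelled and 1864 ± 134 in WT libraries under TGFβ, and 1335 ± 11.3 in KO-labelled and 1044 ± 15.4 in WT libraries under SB505124 (mean ± SD, n = 2 each). The altered bases are not given in the sources used here, so reads over the whole gene do not check the knockout, and the label is used as a name. Smad7, an early SMAD target, was 8.13-fold higher under TGFβ in KO-labelled cells and 6.55-fold higher in WT cells. The luminal markers (6 of 8 in the table, led by keratins; Cldn3 and Pgr have no row) summed to 155625 to 248572 normalised counts per library, basal markers to 19.02 to 88.96 and fibroblast markers to 46.53 to 669.4. The luminal sums were almost wholly Krt8, Krt18 and Krt19, while Elf5 had at most 3.723 and Esr1 at most 1.001 counts in any library. Luminal sums were 242714 to 248572 under TGFβ and 163072 to 176135 under SB505124 in KO-labelled cells. They were 218480 to 221305 under TGFβ and 155625 to 165446 under SB505124 in WT cells. The basal sum was 75.09 to 87.14 under TGFβ and 68.87 to 88.96 under SB505124 in KO-labelled cells, and 53.72 to 60 under TGFβ and 19.02 to 21.29 under SB505124 in WT cells. The fibroblast sum was 379.3 to 384.1 under TGFβ and 46.53 to 61.32 under SB505124 in KO-labelled cells, and 513.2 to 669.4 under TGFβ and 161.2 to 164.2 under SB505124 in WT cells. Within the sums, single markers differed in direction between genotypes. Krt5 (basal) had 56.77 to 82.05 counts in KO-labelled and 0 to 3.429 in WT libraries. Krt14 (basal) had 0 in KO-labelled and 3.004 to 46.31 in WT libraries. Epcam (luminal) had 0 in KO-labelled and 4.005 to 36.57 in WT libraries, and Dcn (fibroblast) 0 to 0.8637 and 38.86 to 94.12. The sums therefore do not give a balance of cell types. The part of these markers in the results on the WNT genes was not tested. In bulk RNA, fewer cells of a type and less RNA per cell cannot be told apart.

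Stretches of 3 promoters are shown because the genes behaved differently under TGFβ. Wnt9a was higher than under SB505124 in both genotypes, and Axin2 passed the test in neither. Wnt7a had the larger fold in KO-labelled cells, a call lost in 4 of 16 alternatives. The sequences come from RefSeq (GRCm38.p6), run 5′ to 3′ along the gene's own strand and end at the base before the gene in the GENCODE annotation. The stretches of Wnt7a (240 bases) and Wnt9a (248 bases) therefore stop short of the RefSeq start, and that of Axin2 (250 bases) reaches it. Capitals mark a CAGAC SMAD box.
Wnt9a, chr11:59306680-59306927, plus strand: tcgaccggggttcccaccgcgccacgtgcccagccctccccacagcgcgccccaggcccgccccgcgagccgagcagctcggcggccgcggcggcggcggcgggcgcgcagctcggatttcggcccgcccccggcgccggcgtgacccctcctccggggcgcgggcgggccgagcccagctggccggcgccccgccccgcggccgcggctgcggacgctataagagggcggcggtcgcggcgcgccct
Wnt7a, chr6:91411364-91411603, minus strand: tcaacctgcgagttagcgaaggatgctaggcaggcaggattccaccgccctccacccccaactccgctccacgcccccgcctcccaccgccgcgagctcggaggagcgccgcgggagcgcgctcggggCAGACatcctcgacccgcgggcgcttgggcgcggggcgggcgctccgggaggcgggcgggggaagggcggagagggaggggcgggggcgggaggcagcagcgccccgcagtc
Axin2, chr11:108920099-108920348, plus strand: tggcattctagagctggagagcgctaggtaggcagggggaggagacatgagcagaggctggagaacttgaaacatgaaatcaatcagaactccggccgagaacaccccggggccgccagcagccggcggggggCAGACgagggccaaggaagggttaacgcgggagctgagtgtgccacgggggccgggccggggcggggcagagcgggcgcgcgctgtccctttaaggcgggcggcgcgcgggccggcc

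Windows of the 250 bases before each start were searched on both strands for 3 motifs. These were the LEF/TCF core (CTTTG, then A or T, then A or T), the SMAD box (CAGAC) and the AP-1 site, whose letters are TGANTCA. The shares of all 32851 promoter windows that hold them were 14.8%, 42.2% and 6.75%. Wnt7a and Axin2 each held 1 SMAD box, 117 and 112 bases before the RefSeq start. The Wnt9a, Wnt4 and Tcf7 windows held none of the 3 motifs. Of the 2 listed starts of Tcf7l2, 1 held a LEF/TCF core 7 bases from the start. Of the 4 starts of Lef1, 3 held a SMAD box and 1 of those a LEF/TCF core as well. The SMAD box is common among promoters, and a match or its absence in these windows is a description of letters only.

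Wnt9a, Wnt7b, Wnt7a and Tcf7l2 were higher under TGFβ than under SB505124 in both genotypes. Tcf7 and Wnt4 passed the test in KO-labelled cells. Rises and falls are relative to SB505124, so effects of TGFβ, of the inhibitor and of the treatment time cannot be told apart. Of the 7 tested members, 6 were higher under TGFβ than under SB505124 in KO-labelled cells and none was lower, where 15.1% of all tested genes were called higher and 15.8% lower (30.9% in all). In WT cells 4 of 7 were higher and none was lower, where 20.2% of all tested genes were called higher and 23.2% lower (43.3% in all). The median log2 difference of the members was 1.57 in KO-labelled and 0.60 in WT cells, and that of all tested genes was -0.02 and -0.01. The members were chosen with earlier results of these data known, so these counts and medians are a description and no test of the set. Values below are normalised counts per library, which are reads divided by a size factor. Differences are on the log2(normalised count + 1) scale, with the standard error (SE) and the Benjamini-Hochberg adjusted p of limma over 12498 genes, and folds are taken from that scale.

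**Figure D1:**
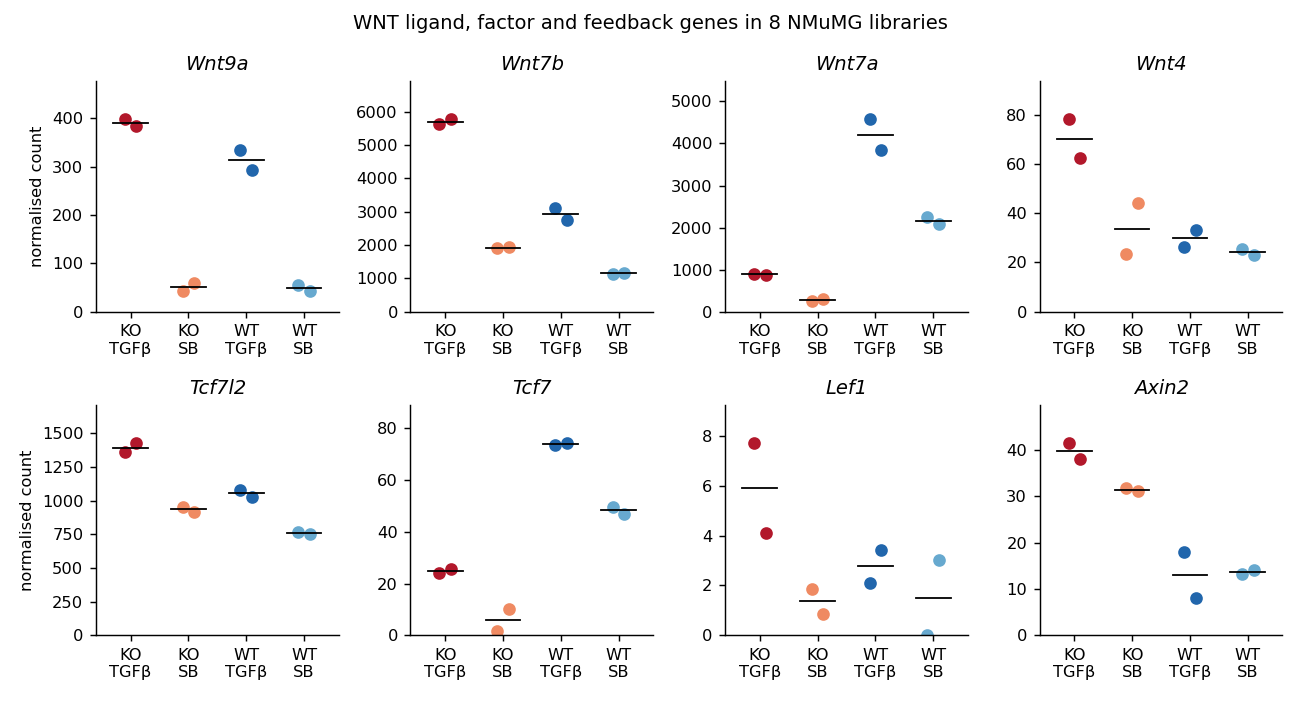
Normalised counts (vertical axes, each from 0) of the 8 members in the 4 groups. Each point is a library and each line a group mean. The points of Wnt9a and Wnt7b are higher under TGFβ than under SB505124 in both genotypes, Wnt7a and Tcf7 are lowest in KO-labelled cells under SB505124, and Lef1 does not pass 7.702.

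Wnt9a encodes a ligand known for its part in joint formation, and its gene lies at chr11:59306928-59333552 (GRCm38, plus strand). It had 397.6 and 383.4 counts under TGFβ in KO-labelled cells, against 43.74 and 59.6 under SB505124. WT cells had 334.7 and 293.7 under TGFβ, against 54.74 and 43.06 under SB505124. The TGFβ and SB505124 libraries did not overlap in either genotype, and the 2 genotypes overlapped under SB505124. Under TGFβ it was 7.52-fold higher in KO-labelled cells (log2 2.91 ± 0.18, limma adjusted p = 1.7e-10) and 6.35-fold higher in WT cells (log2 2.67 ± 0.18, limma adjusted p = 8.2e-10). This was the largest response among the tested members in both genotypes. The responses differed by 0.24 (95% interval -0.28 to 0.77, limma adjusted p = 0.677).

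Wnt7b, a ligand expressed in the ductal epithelium of the mammary gland, lies at chr15:85535437-85582473 on the minus strand. It had 5638 and 5764 counts under TGFβ in KO-labelled cells, against 1908 and 1939 under SB505124. In WT cells the counts were 3123 and 2748 under TGFβ, against 1125 and 1167 under SB505124. All 4 KO-labelled libraries lay above the WT libraries of the same treatment. Under TGFβ it was 2.96-fold higher in KO-labelled cells (log2 1.57 ± 0.08, limma adjusted p = 1.7e-11) and 2.56-fold higher in WT cells (log2 1.35 ± 0.08, limma adjusted p = 1.7e-10). The responses differed by 0.21 (95% interval -0.03 to 0.45, limma adjusted p = 0.36). The library kit does not mark the strand, and 324 of the 4898 exon bases of Wnt7b (6.61%) overlap AU022754 on the opposite strand, so reads of these bases cannot be assigned to a strand. AU022754 itself had 204.1 and 244 counts under TGFβ in KO-labelled cells against 53.05 and 46.64 under SB505124, and 50.52 and 60.58 under TGFβ in WT cells against 26.35 and 14.02 under SB505124. It moved in the same direction as Wnt7b, at far lower counts.

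Wnt7a, the closest paralogue of Wnt7b and a dorsalising signal of the limb and a regulator of the female reproductive tract, lies at chr6:91363981-91411363 on the minus strand. It had 904.9 and 870.4 counts under TGFβ in KO-labelled cells, against 265.2 and 306.6 under SB505124. WT cells had 4570 and 3855 under TGFβ, against 2246 and 2087 under SB505124. The KO-labelled libraries with TGFβ thus lay below the WT libraries without it. Under TGFβ Wnt7a was 3.1-fold higher in KO-labelled cells (log2 1.63 ± 0.10, limma adjusted p = 1.6e-10) and 1.94-fold higher in WT cells (log2 0.95 ± 0.10, limma adjusted p = 3.8e-07). It was the only tested member whose response differed between genotypes past the threshold, by 0.68 ± 0.14 (limma adjusted p = 0.00869). That is 1 of 7 members higher in the difference, where 2.25% of all tested genes were called higher and 0.568% lower (2.82% in all). The call was lost without the variance trend (0.68, limma adjusted p = 0.162), without the filter on low values (0.68, limma adjusted p = 0.0749), without KO TGFβ replicate 1 (0.65, limma adjusted p = 0.0663) and without WT SB505124 replicate 1 (0.63, limma adjusted p = 0.105). Transcripts of Wnt7a and Wnt7b share no stretch of 31 bases.

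Wnt4, a ligand induced by progesterone that drives side branching in the mammary gland, lies at chr4:137277489-137299726 on the plus strand. It had 77.98 and 62.53 counts under TGFβ in KO-labelled cells, against 23.27 and 44.05 under SB505124. The WT libraries had 26.31 and 33.15 under TGFβ, against 25.34 and 23.03 under SB505124. The KO-labelled libraries with TGFβ stood above the other 6, which lay between 23.03 and 44.05. Under TGFβ Wnt4 was 2.14-fold higher in KO-labelled cells (log2 1.10 ± 0.30, limma adjusted p = 0.00824). This call was lost without KO TGFβ replicate 1 (0.94, limma adjusted p = 0.079) or KO SB505124 replicate 1 (0.65, limma adjusted p = 0.195). In WT cells the difference was 0.28 ± 0.30 (95% interval -0.34 to 0.90, limma adjusted p = 0.472). The difference of the responses, 0.82, had an interval from -0.06 to 1.70 (limma adjusted p = 0.336).

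Tcf7l2 encodes TCF4, the LEF/TCF factor best known from intestinal stem cells, and lies at chr19:55741820-55933654 on the plus strand. It had 1361 and 1426 counts under TGFβ in KO-labelled cells, against 953 and 919 under SB505124. WT cells had 1079 and 1029 under TGFβ, against 765.3 and 754 under SB505124. No groups overlapped. The rise under TGFβ was small and well separated, 1.49-fold in KO-labelled cells (log2 0.57 ± 0.09, limma adjusted p = 3.4e-05) and 1.39-fold in WT cells (log2 0.47 ± 0.09, limma adjusted p = 2.2e-04). Between genotypes the responses differed by 0.10 (95% interval -0.15 to 0.35, limma adjusted p = 0.731).

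Tcf7 encodes TCF1, a factor known from T-cell development, and lies at chr11:52252371-52283014 on the minus strand. It had 24.07 and 25.63 counts under TGFβ in KO-labelled cells, against 1.861 and 10.36 under SB505124. WT cells had 73.68 and 74.29 under TGFβ, against 49.67 and 47.06 under SB505124. The KO-labelled SB505124 libraries rest on 14 reads in all, and their ratio to each other was larger than that of any other replicate pair of Tcf7. Under TGFβ Tcf7 was 4.53-fold higher in KO-labelled cells (log2 2.18 ± 0.43, limma adjusted p = 7.1e-04). The log2 value was 1.18 to 3.17 across the alternatives. In WT cells the difference was 0.60 ± 0.43 (95% interval -0.30 to 1.51, limma adjusted p = 0.274), although the 4 libraries did not overlap. The difference of the responses was 1.58 (95% interval 0.29 to 2.86, limma adjusted p = 0.192) and passed without KO SB505124 replicate 2 (2.57, limma adjusted p = 6.8e-04).

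Lef1 encodes the LEF/TCF factor needed for mammary placodes and lies at chr3:131110471-131224356 on the plus strand. It had 8 and 4 reads under TGFβ in KO-labelled cells, against 2 and 1 under SB505124. WT cells had 2 and 3 reads under TGFβ, against 0 and 3 under SB505124. The ratio of normalised reads, TGFβ over SB505124, was 4.43 in KO-labelled cells (95% counting interval 1.2 to 24.5) and 1.81 in WT cells (0.353 to 11.7). These intervals cover counting error only. A share of 13.7% of its exon bases overlaps Gm43352 on the opposite strand, and at this depth a change in Lef1 was not detectable in WT cells.

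Axin2 lies at chr11:108920349-108950783 on the plus strand. It had 41.4 and 37.93 counts under TGFβ in KO-labelled cells, against 31.64 and 31.09 under SB505124. WT cells had 17.89 and 8.001 under TGFβ, against 13.18 and 14.02 under SB505124. Every KO-labelled library was above every WT library, while the WT libraries of the 2 treatments overlapped and the KO-labelled ones did not. TGFβ differed from SB505124 by 0.33 ± 0.35 in KO-labelled cells (95% interval -0.41 to 1.07, limma adjusted p = 0.523) and by -0.16 ± 0.35 in WT cells (95% interval -0.90 to 0.58, limma adjusted p = 0.741). Without WT TGFβ replicate 2 the WT value was 0.37 (limma adjusted p = 0.452). The intervals allow changes in either direction. The WT libraries held 7 to 17 reads of Axin2 each, and a share of 3.8% of its exon bases overlaps Gm11670 on the opposite strand.

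**Figure D2:**
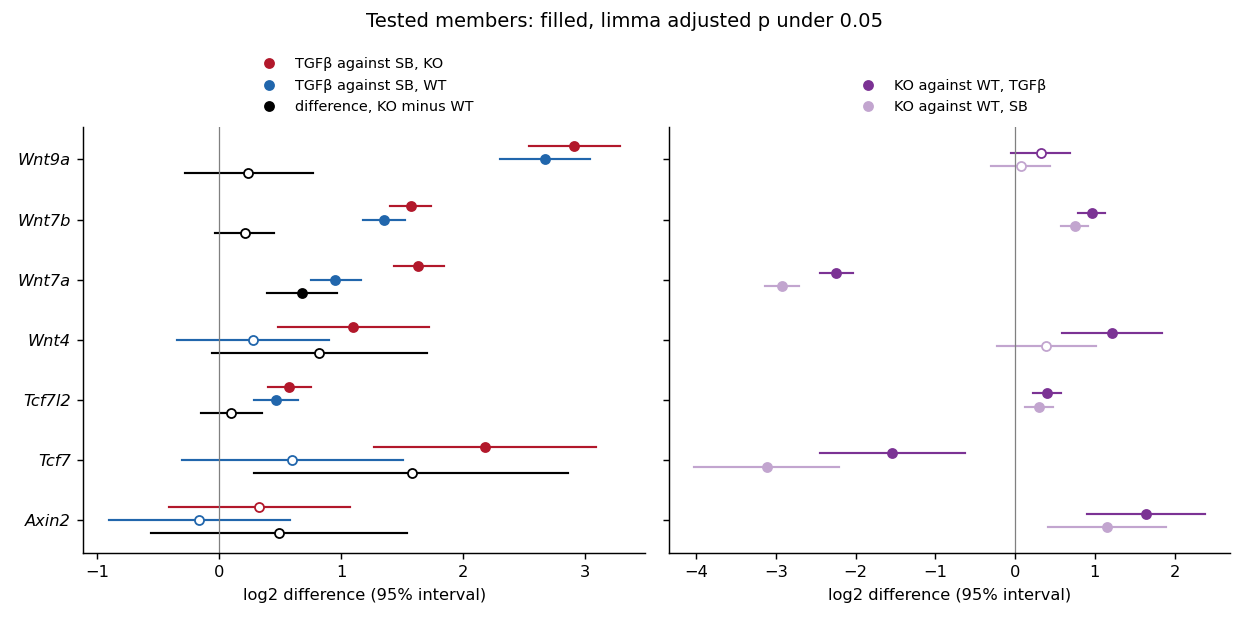
Log2 differences of the 7 tested members with 95% intervals. On the left are the TGFβ responses of KO-labelled (red) and WT (blue) cells and their difference (black), and on the right KO-labelled against WT cells under each treatment. Filled points passed an adjusted p of 0.05. Wnt9a has the largest responses (2.91 and 2.67), and Wnt7a and Tcf7 lie to the left of 0 in both genotype comparisons.

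The same members differed between genotypes in both directions, with Wnt7a and Tcf7 lower and Wnt7b, Axin2 and Tcf7l2 higher in KO-labelled cells under both treatments. Under TGFβ, KO-labelled cells were higher than WT cells for 4 of 7 members and lower for 2, where 32.7% of all tested genes were called higher and 30.2% lower. Under SB505124, 3 of 7 were higher and 2 lower, where 29.2% of all tested genes were called higher and 27.7% lower. Most tested genes differed between the genotypes (62.9% under TGFβ and 56.9% under SB505124), so the number of members called is no result about the members, and their sizes are given gene by gene.

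Wnt7a was lower in KO-labelled than in WT cells, to a fold of 0.212 under TGFβ (log2 -2.24 ± 0.10, limma adjusted p = 6.8e-13) and to 0.132 under SB505124 (log2 -2.92 ± 0.10, limma adjusted p = 1.4e-14). Tcf7 was lower as well, to 0.345 under TGFβ (log2 -1.54 ± 0.43, limma adjusted p = 0.00461) and 0.116 under SB505124 (log2 -3.11 ± 0.43, limma adjusted p = 5.6e-06). Without the variance trend the limma adjusted p of Tcf7 under TGFβ was 0.0513. Both genes were lower in every KO-labelled library than in every WT library.

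Wnt7b was higher in KO-labelled cells, 1.95-fold under TGFβ (log2 0.96 ± 0.08, limma adjusted p = 7.8e-09) and 1.68-fold under SB505124 (log2 0.75 ± 0.08, limma adjusted p = 2.4e-07). Axin2 was 3.12-fold higher under TGFβ (log2 1.64 ± 0.35, limma adjusted p = 5.3e-04) and 2.22-fold higher under SB505124 (log2 1.15 ± 0.35, limma adjusted p = 0.00945). Tcf7l2 was higher by 0.40 ± 0.09 under TGFβ (limma adjusted p = 4.4e-04) and by 0.30 ± 0.09 under SB505124 (limma adjusted p = 0.00545).

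Wnt4 was 2.32-fold higher in KO-labelled cells under TGFβ (log2 1.21 ± 0.30, limma adjusted p = 0.0016), while under SB505124 the difference of 0.39 ± 0.30 did not pass (limma adjusted p = 0.27). That SB505124 value was 0.84 without KO SB505124 replicate 1 (limma adjusted p = 0.0376) and -0.05 without KO SB505124 replicate 2 (limma adjusted p = 0.912). Wnt9a did not pass under TGFβ (0.32 ± 0.18, limma adjusted p = 0.128) or under SB505124 (0.07 ± 0.18, limma adjusted p = 0.751). Genes of chromosome 4, where Wnt4 lies, had a median of -0.68 under TGFβ and -0.69 under SB505124 (714 genes), against 0.01 for all tested genes in each. The 6 nearest tested genes around Wnt4 were at -0.72 to -0.22 under TGFβ, 5 of them called lower, and at -1.31 to -0.10 under SB505124, 4 of them called lower, so Wnt4 lay above all 6. The medians of the chromosomes of the other tested members lay between -0.07 and 0.05 under both treatments. Single neighbours of these members still differed. Beside Wnt7a, Fbln2 (-0.73 under TGFβ, -1.37 under SB505124) and Tmem43 (-0.68 and -1.08) were lower. Hdac11 there was higher (0.52 and 1.15), and Nup210 and Chchd4 did not pass. Beside Wnt7b, Atxn10 (0.70 and 0.71) and AU022754 (1.99 and 1.32) were higher, and Cdpf1 and Ttc38 did not pass. The part of local changes in these differences was not tested.

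The balance of the ligands was set out per length, as normalised counts per kilobase of merged exons, since counts of different genes are not comparable otherwise. Wnt7b made up 72.3% and 73.7% of the summed ligand level under TGFβ in KO-labelled cells and 77.8% and 74.7% under SB505124. In WT cells it made up 28.7% and 29.5% under TGFβ and 23.6% and 25.7% under SB505124. Wnt7a had 17.9% and 17.2% under TGFβ in KO-labelled cells and 16.7% and 18.2% under SB505124, and in WT cells 64.9% and 63.9% under TGFβ and 72.6% and 71.1% under SB505124. The leading ligand transcript was therefore Wnt7b in all 4 KO-labelled libraries and Wnt7a in all 4 WT libraries.

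The level of Wnt7a per level of Wnt7b was 0.248 and 0.233 under TGFβ in KO-labelled cells, and 2.26 and 2.17 under TGFβ in WT cells. Under SB505124 it was 0.215 and 0.244 in KO-labelled and 3.08 and 2.76 in WT cells. Wnt9a made up 7.5% and 7.21% under TGFβ in KO-labelled cells, against 2.62% and 3.38% under SB505124, and 4.53% and 4.64% under TGFβ in WT cells, against 1.69% and 1.4% under SB505124. The summed ligand level was 1592 and 1597 per kilobase under TGFβ in KO-labelled cells, against 501 and 530 under SB505124. In WT cells it was 2220 and 1901 under TGFβ, against 975 and 926 under SB505124. Both TGFβ sums were above both SB505124 sums in each genotype, and the KO-labelled sums were below the WT sums of the same treatment.

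**Figure D3:**
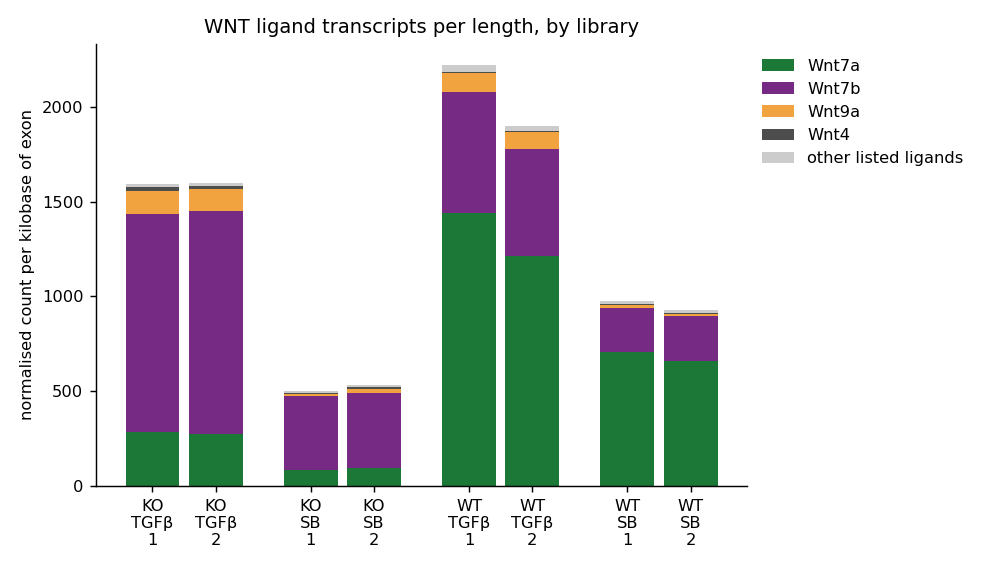
Stacked bars of normalised counts per kilobase of exon for the WNT ligands in each of the 8 libraries. Wnt7a (green) is the tallest segment in the WT libraries and Wnt7b (purple) in the KO-labelled ones, and the bars reach 1592 and 1597 under TGFβ in KO-labelled cells and 2220 and 1901 in WT cells.

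Of 15 other WNT ligands listed, 13 have a row and only Wnt2b and Wnt5a reached a mean of 10. Neither passed the test in any of the 5 comparisons. Wnt5a, a ligand of the non-canonical branch, had 21.18 to 36.57 counts over the 8 libraries, and Wnt2b 12.63 to 32.44. Below that limit, Wnt1, the ligand first found as a mouse mammary oncogene, had 9.627 and 7.176 counts under TGFβ in KO-labelled cells and 0 reads in both libraries under SB505124. In WT cells Wnt1 had 30.53 and 21.72 under TGFβ, and 0 and 2.003 under SB505124. Wnt2 had 13.48 and 7.176 under TGFβ in KO-labelled cells against 0 and 2.591 under SB505124, and 17.89 and 18.29 under TGFβ in WT cells against 4.055 and 1.001 under SB505124. Wnt11 had 5.776 and 7.176 under TGFβ in KO-labelled cells against 0.9307 and 0 under SB505124, and 8.421 and 5.715 in WT cells against 0 in both. These 3 genes were singled out after their values were seen and were not tested.

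Among the LEF/TCF factors, Tcf7l2 led in every library, with 92.4% and 93.5% of the family's level per length under TGFβ in KO-labelled cells and 97.9% and 95.5% under SB505124. In WT cells it had 69.2% and 67.9% under TGFβ and 67.7% and 71.6% under SB505124. Tcf7 had 5.46% and 5.62% under TGFβ in KO-labelled cells against 0.639% and 3.6% under SB505124, and 15.8% and 16.4% under TGFβ in WT cells against 14.7% and 14.9% under SB505124. Tcf7l1, which encodes the repressor TCF3, had 1.61% and 0.601% under TGFβ in KO-labelled cells and 14.8% and 15.5% in WT cells, and 1.28% and 0.803% under SB505124 in KO-labelled cells and 17.6% and 13.2% in WT cells. Lef1 reached at most 0.522% in any library. Tcf7 and Tcf7l1 thus had larger shares in every WT library than in any KO-labelled one.

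**Figure D4:**
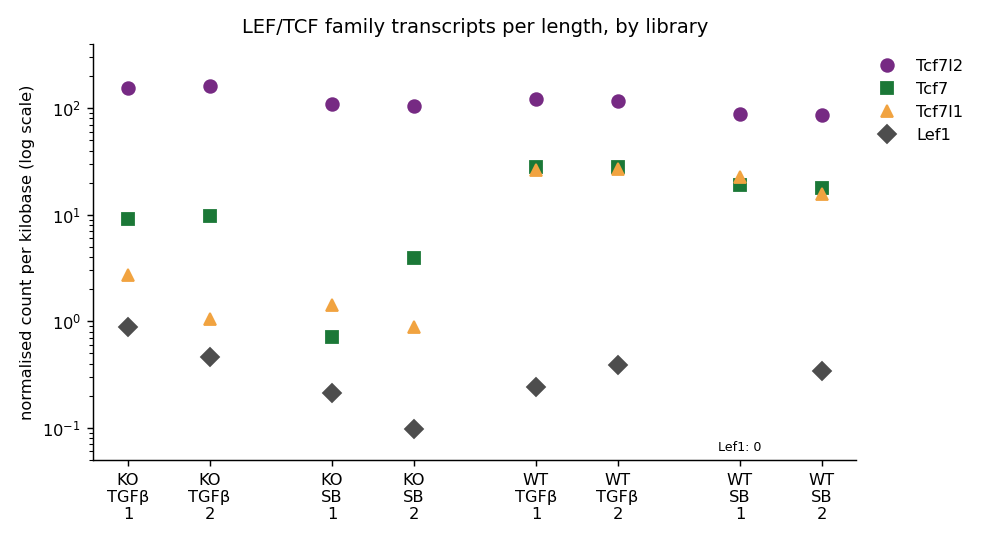
Normalised counts per kilobase (log axis) of the 4 LEF/TCF genes in each library, with the library of 0 Lef1 reads marked. Tcf7l2 is the highest in all 8 libraries, and Tcf7 and Tcf7l1 are lower in KO-labelled than in WT libraries.

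By Pearson correlation of log2 values over the 8 libraries, with 10487 candidate genes, the pattern most like that of Wnt9a was Cldn4 (r = 0.999), a claudin of tight junctions, followed by Kank1 (0.997). Cldn4 had 449.6 and 528 counts under TGFβ in KO-labelled cells against 0 and 1.727 under SB505124, and 358.9 and 300.6 under TGFβ in WT cells against 1.014 and 0 under SB505124. Wnt7a was most like Phf13 (0.998) and Tnfrsf1b (0.997), which encodes the second TNF receptor. Wnt7b was most like Micall1 (0.996) and Foxq1 (0.996), a forkhead factor. Tcf7l2 was most like Elovl7 (0.997) and then Wnt7b itself (0.995), so 2 members shared their pattern. Axin2 was most like Dab2ip (0.986) and Acad10 (0.985), Tcf7 most like Smg9 (0.987) and Fam46b (0.980), and Wnt4 most like Agfg2 (0.953) and Ier5 (0.937). The points share the 4 groups, so each r mostly describes the relative spacing of 4 group means.

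Beyond the members, 110 other WNT pathway genes were listed by role, of which 100 have a row and 68 were tested. These lists were also made with earlier results of these data known. Under TGFβ 15 were higher and 10 lower in KO-labelled cells, and 11 were higher and 21 lower in WT cells. The medians were 0.04 and -0.17, beside -0.02 and -0.01 for all tested genes. The called shares were 36.8% in KO-labelled and 47.1% in WT cells, beside 30.9% and 43.3% of all tested genes, so these counts are no result about the pathway. By direction, 15.1% of all tested genes were called higher and 15.8% lower in KO-labelled cells, and 20.2% higher and 23.2% lower in WT cells. The counts by role below stand beside these shares, rest on few genes each and were not tested as sets.

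Of the secretion genes 1 of 4 rose in KO-labelled cells, and 2 rose and 1 fell in WT cells. Porcn, the acyltransferase that lipid-modifies WNT proteins, had 754.8 and 827.3 counts under TGFβ in KO-labelled cells against 493.3 and 634.8 under SB505124, a log2 difference of 0.50 ± 0.12 (limma adjusted p = 0.00342). In WT cells the difference was 0.35 ± 0.12 (limma adjusted p = 0.0237). The KO-labelled call of Porcn was lost without KO TGFβ replicate 2 (0.43) or KO SB505124 replicate 1 (0.32). Its WT call was lost without the filter or the variance trend (0.35 each), without WT TGFβ replicate 1 (0.30) and without WT SB505124 replicate 2 (0.26, limma adjusted p = 0.205). Wls, the carrier that brings WNT proteins to the cell surface, fell by 0.20 in WT cells (limma adjusted p = 0.0413). Of 16 alternatives, 7 lost that call, among them leaving out WT TGFβ replicate 2 (-0.17), WT SB505124 replicate 1 (-0.17) or WT SB505124 replicate 2 (-0.24).

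Of 14 tested receptors and coreceptors, 2 rose and 2 fell in KO-labelled cells, and 2 rose and 4 fell in WT cells. Fzd2, a Frizzled receptor, had 946.3 and 981.1 counts under TGFβ in KO-labelled cells against 232.7 and 287.6 under SB505124, and 1052 and 742.9 under TGFβ in WT cells against 317.3 and 317.4 under SB505124. It rose 3.71-fold in KO-labelled cells (limma adjusted p = 2.3e-09) and 2.78-fold in WT cells (limma adjusted p = 1.0e-07), and the TGFβ and SB505124 libraries did not overlap within either genotype. Fzd5 fell by 0.68 in KO-labelled and by 0.45 in WT cells (limma adjusted p = 3.9e-06 and 2.9e-04), and Fzd7 fell by 0.59 in KO-labelled and by 0.68 in WT cells (limma adjusted p = 5.9e-04 and 1.2e-04).

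Of 5 tested receptor turnover genes, 2 rose and 2 fell in KO-labelled cells, and 1 rose and 2 fell in WT cells. Lgr6, an R-spondin receptor, had 103 and 84.06 counts under TGFβ in KO-labelled cells against 16.75 and 15.55 under SB505124, and 331.6 and 261.7 under TGFβ in WT cells against 96.3 and 102.1 under SB505124. It rose 5.49-fold in KO-labelled cells (limma adjusted p = 7.4e-09) and 2.95-fold in WT cells (limma adjusted p = 3.4e-06). The related Lgr4 fell by 0.67 in KO-labelled and by 0.53 in WT cells (limma adjusted p = 7.4e-06 and 8.5e-05). Rnf43, a ubiquitin ligase that removes Frizzled receptors from the surface, fell by 0.65 in KO-labelled and by 0.53 in WT cells (limma adjusted p = 0.00231 and 0.00698). These calls of Rnf43 were lost without KO TGFβ replicate 2 (-0.46) and without WT SB505124 replicate 1 (-0.41). Of the 15 listed inhibitors only Apcdd1 and Kremen1 were tested. Apcdd1, a membrane inhibitor of WNT, fell by 0.58 in KO-labelled and by 1.01 in WT cells (limma adjusted p = 2.2e-04 and 2.9e-07).

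Of 16 tested cytoplasmic transducers, 2 rose and 3 fell in KO-labelled cells, and 1 rose and 8 fell in WT cells. Of all tested genes, 15.8% were called lower in KO-labelled and 23.2% in WT cells. Csnk1e, a casein kinase of the pathway, rose by 0.39 in KO-labelled and by 0.43 in WT cells (limma adjusted p = 4.2e-04 and 1.4e-04). Tnks, a tankyrase that marks Axin for degradation, had 3190 and 2475 counts under TGFβ in KO-labelled cells against 3371 and 2746 under SB505124, and 612.6 and 664 under TGFβ in WT cells against 1324 and 1441 under SB505124. The KO-labelled treatments overlapped, and the WT ones did not. It fell by 1.11 in WT cells (limma adjusted p = 3.2e-07), and in KO-labelled cells the difference was -0.11 ± 0.11 (limma adjusted p = 0.482). Apc and Amer1, scaffolds of the destruction complex, fell by 0.41 and 0.51 in KO-labelled cells (limma adjusted p = 0.00198 and 0.00709) and by 0.50 and 0.71 in WT cells (limma adjusted p = 2.1e-04 and 3.6e-04). Both KO-labelled calls were lost without KO TGFβ replicate 2 (-0.29 and -0.45), and that of Amer1 also without KO SB505124 replicate 1 (-0.42).

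Of 10 tested nuclear cofactors, 3 rose and none fell in KO-labelled cells, and 2 rose and 2 fell in WT cells. Tle3, a Groucho-type corepressor of LEF/TCF factors, had 3319 and 3248 counts under TGFβ in KO-labelled cells against 937.2 and 1117 under SB505124, and 2855 and 2657 under TGFβ in WT cells against 1658 and 1649 under SB505124. It rose 3.21-fold in KO-labelled cells (limma adjusted p = 2.1e-11) and 1.67-fold in WT cells (limma adjusted p = 2.5e-06). Of 5 tested target genes beside Axin2, 1 rose and 1 fell in KO-labelled cells, and 1 rose and 2 fell in WT cells. Bambi, a decoy receptor of the TGFβ family, rose 3.04-fold in KO-labelled and 2.61-fold in WT cells (limma adjusted p = 1.4e-04 and 4.4e-04). Myc fell by 0.64 in KO-labelled and by 0.51 in WT cells (limma adjusted p = 1.5e-05 and 1.7e-04), and the cell cycle gene Ccnd1 fell by 0.24 in WT cells (limma adjusted p = 0.0379, not called under 6 of 16 alternatives, with values from -0.27 to -0.21). These target genes therefore did not move in 1 direction, and the part of WNT signalling in their changes was not tested.

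In the planar polarity branch, 4 of 10 rose and 1 fell in KO-labelled cells, and 2 rose and 1 fell in WT cells. Prickle2 had 13.48 and 6.151 counts under TGFβ in KO-labelled cells and no reads under SB505124, at least 7.39-fold higher with 3 reads over the group as the floor. In WT cells it had 32.63 and 32 counts under TGFβ against 2.027 and 3.004 under SB505124 (log2 3.26 ± 0.59, limma adjusted p = 2.4e-04). Its paralogue Prickle1 fell by 1.22 in KO-labelled and by 1.38 in WT cells (limma adjusted p = 0.0137 and 0.00417). The KO-labelled call was lost without the filter or the variance trend (-1.22 each), without KO TGFβ replicate 1 (-0.75) and without KO SB505124 replicate 1 (-0.92), and the WT call without WT SB505124 replicate 1 (-1.24, limma adjusted p = 0.0515).

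**Figure D5:**
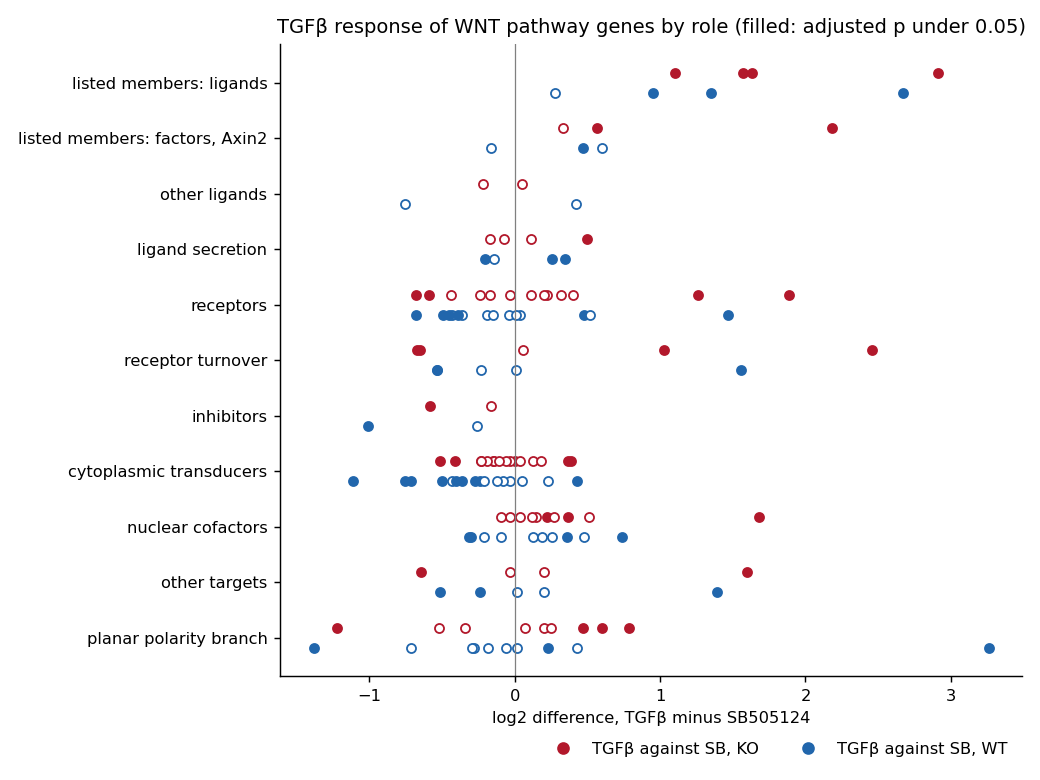
Log2 difference between TGFβ and SB505124 for the members and the other tested WNT pathway genes, in rows by role, with KO-labelled cells in red above WT cells in blue. Filled points passed an adjusted p of 0.05, and Prickle2, Fzd8 and Ephb3 are not drawn for KO-labelled cells because a group there had 0 or 1 read. The member ligands lie to the right of 0 (medians 1.60 and 1.15), and the cytoplasmic transducers lie mostly to the left of 0 in WT cells (median -0.25).

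The TGFβ response differed between genotypes for 5 of the 68 pathway genes, all with the higher value in KO-labelled cells. That is a share of 7.35%, where 2.25% of all tested genes were called higher and 0.568% lower. For Tle3 the difference of responses was 0.95 ± 0.12 (limma adjusted p = 2.0e-04) and for Tnks 1.00 ± 0.16 (limma adjusted p = 0.00117). For Ror1, a receptor of the non-canonical branch, it was 0.81 ± 0.18, for Fzd1 0.78 ± 0.19 and for Dvl3, a Dishevelled adaptor, 0.69 ± 0.18. The last 3 were lost in 5, 6 and 8 of 16 alternatives. The count was 13 without WT TGFβ replicate 1, and 0 without the variance trend.

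Between genotypes, 23 pathway genes were higher and 18 lower in KO-labelled cells under TGFβ, and 16 were higher and 24 lower under SB505124. The called shares were 60.3% under TGFβ and 58.8% under SB505124, beside 62.9% and 56.9% of all tested genes, so these counts are no result about the pathway. The largest differences were genes nearly silent in KO-labelled cells. Ephb3, an ephrin receptor gene and WNT target in the intestine, had no reads under TGFβ in KO-labelled cells against 230.5 and 165.7 counts in WT cells, at least 134-fold lower. Under SB505124 it had 1 read in KO-labelled cells against 186.5 and 198.3 counts in WT cells, with a WT over KO-labelled ratio of 430 (95% counting interval 76.6 to 1.7e+04). Fzd8 had 1 read in KO-labelled cells under each treatment against 77.89 and 59.43 counts under TGFβ and 76.02 and 64.08 under SB505124 in WT cells. Ptk7, a WNT coreceptor of the planar polarity branch, had 7.702 and 11.28 counts in KO-labelled cells against 418.9 and 298.3 in WT cells under TGFβ, and 11.17 and 11.23 against 340.6 and 361.5 under SB505124. Its log2 differences were -5.10 ± 0.23 and -4.85 ± 0.23 (limma adjusted p = 8.9e-13 and 1.7e-12).

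Tcf7l1 had 10.59 and 4.101 counts in KO-labelled cells against 103.2 and 105.2 in WT cells under TGFβ, and 5.584 and 3.455 against 89.2 and 62.08 under SB505124 (log2 -3.77 ± 0.38 and -3.80 ± 0.38, limma adjusted p = 7.4e-08 and 7.5e-08). Lgr6 was lower by 1.65 ± 0.19 under TGFβ and by 2.55 ± 0.19 under SB505124 (limma adjusted p = 5.4e-07 and 1.7e-09). Higher in KO-labelled cells were Tnks (log2 2.14 ± 0.11 under TGFβ and 1.14 ± 0.11 under SB505124), Daam2 (1.88 ± 0.36 and 1.69 ± 0.36), Lgr4 (0.79 ± 0.09 and 0.92 ± 0.09) and Apc (0.77 ± 0.09 and 0.67 ± 0.09). Ctnnb1, which encodes β-catenin, had 68795 and 67803 counts in KO-labelled cells against 36511 and 40362 in WT cells under TGFβ, 1.78-fold higher (limma adjusted p = 7.0e-07). Under SB505124 Ctnnb1 was higher as well, with 64084 and 60447 counts in KO-labelled cells against 37349 and 40983 in WT cells. The canonical target Cd44 was lower by 0.90 under both treatments (limma adjusted p = 2.5e-08 and 2.7e-08), opposite to Axin2. Dvl1 and Ctnnbip1, an inhibitor of β-catenin binding, were at -1.04 and -0.88 under SB505124, and both lie on chromosome 4, whose median was -0.69.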

How the data were processed

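Each gene has 1 deposited signal value per library, a read count that the authors divided by a size factor. The submitters' processing notes name mm10, HTSeq 0.6.1p1, FastQC 0.11.5 and DESeq2; the aligner is not given in the sources used here. Per the labels, the TruSeq v2 kit was used, in which strand is lost. Values were whole multiples of 1 step per library (100% within 0.01 reads), so reads were recovered, 25144204 to 32143113 per library; they were used for alternatives, because the unit needs a log-scale test.

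Genes with a mean of at least 10 were tested (12498 of 18102). Log2(value + 1) was fitted with limma 3.58.1 (R 4.3.3), 4 group means over 8 libraries and a variance trend (prior degrees of freedom 14.3). Benjamini-Hochberg adjustment ran over all tested genes of each of 5 contrasts, with a threshold of 0.05. The pseudocount understates changes of low genes. The fit was also run on simulated counts, and no result above rests on that run. Alternatives were pseudocounts of 0.5 and 8, no filter, no trend, edgeR 4.0.16 with TMM, DESeq2 1.42.0, TMM scaling, a replicate block and leaving out each library.

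Coordinates and merged exon lengths come from GENCODE M21 on GRCm38 (mm10), where 94.7% of the symbols had 1 match, and promoters from RefSeq. Wnt7b was named without a promoter. Ratios with 1 to 3 reads in a group have exact 95% counting intervals, and a group with 0 reads was set to 3 reads.

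The 8 members and the role lists were chosen with earlier results of these data known. Named genes were the members, up to 3 genes per list and contrast with the smallest p among those past the threshold, the 2 genes most like each tested member (mean at least 50, predicted genes left out), Rreb1 and Smad7. Of the marker lists, leukocyte markers summed to 460.6 to 679.7, endothelial to 3.723 to 40 and adipocyte to 1.053 to 13.33 per library. Replicates of a group differed beyond sampling noise (chi-square per degree of freedom 6.06 to 15.3) and were counted separately.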

Additional observations from a re-analysis of the deposited data

Results flagged for a closer look

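The TGFβ response differed between KO-labelled and WT cells, by the test of the difference itself, for Wnt7a (0.68, limma adjusted p = 0.00869), Tle3 (0.95, limma adjusted p = 2.0e-04), Tnks (1.00, limma adjusted p = 0.00117), Ror1 (0.81, limma adjusted p = 0.0154), Fzd1 (0.78, limma adjusted p = 0.0298) and Dvl3 (0.69, limma adjusted p = 0.0401). All values are KO-labelled minus WT on the log2 scale, and all are positive. Of all tested genes, 2.25% were called higher and 0.568% lower in this difference, so calls were mostly positive over all genes too. The shared sign is therefore no result about these genes. For Wnt7a, Tle3 and Fzd1 both genotypes rose, and the fold was larger in KO-labelled cells. For Tnks and Dvl3, WT cells fell by 1.11 and 0.75 while KO-labelled cells had -0.11 and -0.06, which did not pass. For Ror1, WT cells fell by 0.49 and KO-labelled cells had 0.32 (limma adjusted p = 0.0646). The Tle3 and Tnks calls were lost only without the variance trend (limma adjusted p = 0.0626 and 0.13). The Ror1 call was lost without the filter (0.81), without the trend (0.81), without KO TGFβ replicate 1 (0.63), without WT SB505124 replicate 1 (0.78) and without WT SB505124 replicate 2 (0.84). That of Fzd1 was lost under the same settings (0.78, 0.78, 0.60, 0.69 and 0.87) and without WT TGFβ replicate 2 (0.72). That of Dvl3 was lost without the filter or the trend (0.69 each), without KO TGFβ replicate 1 or 2 (0.66 and 0.73), without WT TGFβ replicate 2 (0.43) and without WT SB505124 replicate 1 or 2 (0.61 and 0.77).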

How the results depend on the processing

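Of 557 member values under the alternatives, 543 kept their direction and side of the threshold, 7 lost a call, 2 gained one and 5 changed sign. Where signs changed, leaving out single libraries gave -0.70 to 0.37 for Axin2 in WT cells and -0.04 to 1.02 for its difference of responses (both changed without WT TGFβ replicate 2). Between genotypes under SB505124 it gave -0.05 to 0.84 for Wnt4 (changed without KO SB505124 replicate 2) and -0.15 to 0.29 for Wnt9a (changed without KO SB505124 replicate 2, and, at -0.10, without WT SB505124 replicate 2). Tnks in KO-labelled cells had -0.30 to 0.07 (changed without KO TGFβ replicate 2 and, at 0.03, without KO SB505124 replicate 1). None of these was called with all libraries. Of 1520 values of 43 other named genes, 1419 kept direction and call.

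For the difference of responses, 352 genes were called, but 134 without the filter, 47 without the trend, and 141 to 1027 when libraries were left out. The members called in it were 0 without the filter or the trend and 0 to 2 without a library, and the pathway genes 2 without the filter, 0 without the trend and 2 to 13 without a library. edgeR and DESeq2 each called 1 member and 5 pathway genes in it. For TGFβ in KO-labelled cells, leaving out a library gave 2320 to 4410 calls against 3864. For TGFβ in WT cells it gave 21 to 31 pathway genes against 32. Scaling moved the median of all genes by at most 0.03.

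Correlations of same-numbered deviations were -0.20 to 0.20. Between the 2 treatments they were 0.10 in KO-labelled and 0.20 in WT cells, so they do not settle whether replicate numbers pair the libraries. With the replicate number as a block, 252 genes were called in the difference of responses, 3658 and 5359 under TGFβ in KO-labelled and WT cells, and 7835 and 7103 between genotypes under TGFβ and SB505124. The block kept the counts of members called (6, 4, 1, 6 and 5) and lost the Dvl3 call (0.69, limma adjusted p = 0.0632). The cause was not tested. Low reads limit Lef1, Axin2, Tcf7 and Wnt4.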
